A study of Mus musculus with 24 samples.

Results

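The genes described here are 10 components and outputs of the circadian clock, measured in mouse liver: Arntl (also called Bmal1), Clock, Npas2, Per1, Per2, Per3, Cry1, Nr1d1, Nr1d2 and Dbp. They were found by the gene name that the scanner output gives for each non-control probe, which returned 23 probes for the 10 genes among 56605 probes on the array. The data were 24 single-colour microarrays of C57BL/6J mouse liver RNA, 1 sample per array. By the labels they form 4 groups of 6: male control, female control, male pesticide and female pesticide. The diet, given for 52 weeks, either held a mixture of pesticides or did not (control), and every sample carries an age label of 68 weeks. By the series title the mixture was set at the Acceptable Daily Intake. The single compounds and their doses, the hour at which livers were taken and the feeding state at that hour are not given in the sources used here. The labels name no individual mice, so p-values measure the spread between these samples.

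The mammalian clock is a loop of transcription factors. ARNTL pairs with CLOCK or NPAS2, binds DNA at E-boxes and switches on the Period and Cryptochrome genes, whose proteins return to block that pair. A second arm runs through NR1D1 and NR1D2 (REV-ERB alpha and beta), nuclear receptors that repress Arntl at RORE sites where ROR receptors activate it, and the output factor DBP acts at D-boxes. In mouse liver this gives daily waves of opposite phase: Arntl, Npas2 and Clock are high around the end of the night, Nr1d1, Nr1d2 and Dbp are high in the day, and the Period genes follow towards dusk. A single harvest of many animals therefore shows each clock gene at whatever point of its wave the animal had reached.

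Promoter windows that carry these binding letters are shown first, because the E-box and the D-box are the sites of the factors measured here. RefSeq promoter windows on GRCm38.p6 were available for 9 of the 10 genes (Per2 has none), and the 250 bases before each start were searched on both strands. The motifs were the E-box CACGTG, the D-box TTATGTAA or TTACGTAA, the RORE core TAGGTCA or TGGGTCA, and the longer RORE consensus, which contains the core. Matches were found in 3 of 9 genes, and capitals mark them. Per1, at chr11:69098699-69098948 on the plus strand, held 1 E-box that began 166 bases before the start. Cry1, at chr10:85185055-85185304 on the minus strand, held 1 E-box at 60 bases. Per3, at chr4:151044666-151044915 on the minus strand, held 2 D-boxes at 205 and 158 bases.
Per1: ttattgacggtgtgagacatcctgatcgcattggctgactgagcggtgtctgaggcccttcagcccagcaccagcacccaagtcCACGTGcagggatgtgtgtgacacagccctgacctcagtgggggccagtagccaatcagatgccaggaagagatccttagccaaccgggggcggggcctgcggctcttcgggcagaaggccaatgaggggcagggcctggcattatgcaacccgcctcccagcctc
Cry1: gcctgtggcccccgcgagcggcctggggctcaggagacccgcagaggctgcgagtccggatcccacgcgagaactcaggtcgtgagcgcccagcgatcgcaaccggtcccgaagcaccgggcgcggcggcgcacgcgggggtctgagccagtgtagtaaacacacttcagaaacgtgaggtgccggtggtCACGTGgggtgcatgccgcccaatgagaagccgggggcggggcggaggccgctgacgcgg
Per3: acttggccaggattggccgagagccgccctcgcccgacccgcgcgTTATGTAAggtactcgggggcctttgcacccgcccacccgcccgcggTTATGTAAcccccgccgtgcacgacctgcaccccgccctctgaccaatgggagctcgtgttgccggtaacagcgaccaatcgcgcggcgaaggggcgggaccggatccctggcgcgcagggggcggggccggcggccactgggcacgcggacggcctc
Among 32851 RefSeq windows of this length, the E-box stood in 6.02%, the D-box in 0.931%, the RORE core in 5.38% and the RORE consensus in 0.332%. None of the motifs was found in the windows of Arntl, Clock, Npas2, Nr1d1, Nr1d2 or Dbp, which says only that these letters are absent from those 250 bases.

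Before the comparisons, 3 features of the arrays bear on every result. Sex-linked transcripts went against the sex label on 12 of 24 arrays. Xist, which is transcribed from the inactive X chromosome, lay between 8.07 and 8.49 on the 12 arrays labelled pesticide and between 4.84 and 5.41 on the 12 labelled control. Eif2s3y, a Y-chromosome gene, lay between 10.75 and 11.16 on the 12 labelled control arrays and between 4.85 and 5.34 on the 12 labelled pesticide arrays. Labelled diet therefore coincided with sex-chromosome transcripts on every array, differences between labelled diets cannot be told apart from differences between the sexes, and each group is named here by its label only, so that males and females below refer to the sex label. The 24 arrays lay on 3 slides with 2 arrays of each group per slide and gave 29934 to 39030 probes well above background. Labelled female control 6 stood apart in several clock genes and labelled female control 5 in Nr1d1, as described below, and results that rest on them are given with and without them. Of 8 hepatocyte markers 7 were measured. Among them Hnf4a, a liver transcription factor gene, lay between 15.55 and 16.32 on all 24 arrays. Not all were as steady: the smallest unadjusted limma p over the pairwise comparisons was 0.24 for Hnf4a, but 0.0021 for Cps1 and 0.0033 for Fgb. In whole tissue, fewer cells of a type and less RNA per cell cannot be told apart.

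Values below are log2 normalised signals, and each gene is represented by its brightest probe. A probe was tested when it was well above background on at least 4 of 6 arrays in at least 1 group, which 20 of the 23 clock probes and 9 of the 10 genes passed. Over the whole array 32078 probes passed, representing 16850 genes. Npas2 was not tested: its only probe, A_52_P534749, was well above background on 7 of 24 arrays, namely 0 labelled male control, 1 labelled female control, 3 labelled male pesticide and 3 labelled female pesticide arrays. One further probe of Clock, A_55_P2741789, and one of Per1, A_55_P2019327, were well above background on 3 and 2 of 24 arrays and were not tested either.

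**Figure D1:**
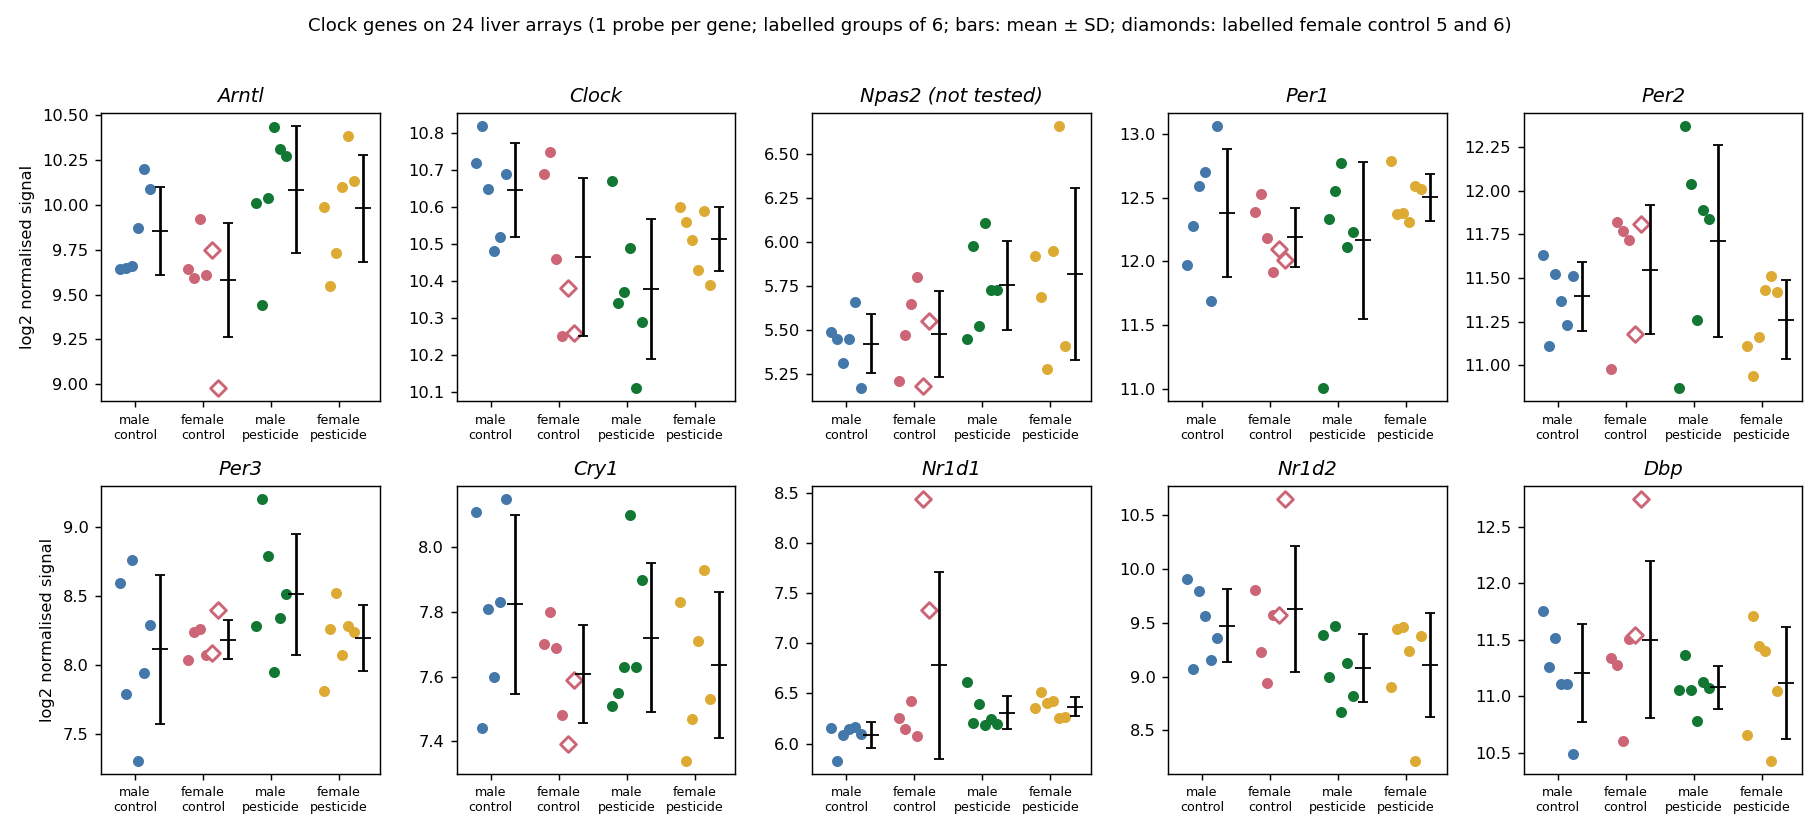
Log2 normalised signal of the 10 clock genes (vertical axes, 1 probe per gene) on 24 arrays in 4 labelled groups of 6 (horizontal axis). Points are arrays, bars are the mean ± SD, and diamonds mark labelled female control 5 and 6. Nr1d1 lies between 5.83 and 6.61 on 22 arrays and at 8.44 and 7.33 on those 2.

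Of the activators, Arntl had 3 probes, each with at least 1 reading frame open along its whole length. Their sequences are shown because these separate stretches of the transcript tracked each other across livers. On mm9 chromosome 7, plus strand, A_52_P267651 covers 120456978 to 120457037 and A_55_P2735445 covers 120439030 to 120439089. A_66_P127371 is 60 bases long but spans 1684 genomic bases, from 120435023 to 120436706, so the genome interval is longer than the probe.
Arntl A_52_P267651: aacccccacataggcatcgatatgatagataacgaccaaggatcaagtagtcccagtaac
Arntl A_55_P2735445: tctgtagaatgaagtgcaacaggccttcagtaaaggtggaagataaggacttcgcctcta
Arntl A_66_P127371: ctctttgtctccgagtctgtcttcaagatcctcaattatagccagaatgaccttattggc
Deviations of these probes from their group means correlated at 0.72, 0.86 and 0.90 in pairs across the 24 arrays, as a description of probes that share each library. With the brightest probe, A_52_P267651, Arntl ran from 9.64 through a median of 9.77 to 10.20 in labelled male controls and from 8.98 through 9.62 to 9.92 in labelled female controls. It ran from 9.44 through 10.15 to 10.43 in labelled male pesticide livers and from 9.55 through 10.05 to 10.38 in labelled female pesticide livers. All groups overlapped, and the lowest value of the study, 8.98, belonged to labelled female control 6, while the other 23 arrays lay between 9.44 and 10.43. The labelled diet difference in Arntl was 0.23 ± 0.17 (SE) in males and 0.40 ± 0.17 in females on the log2 scale, with limma adjusted p of 0.35 and 0.099. The female difference was 0.29 ± 0.17 without labelled female control 5 and 6, adjusted p = 0.30. The other Arntl probes gave 0.16 and 0.12 in males and 0.33 and 0.24 in females, and none passed.

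Clock, the partner of ARNTL, was the one member whose brightest probe passed in a labelled diet comparison. It ran from 10.48 through a median of 10.67 to 10.82 in labelled male controls and from 10.11 through 10.35 to 10.67 in labelled male pesticide livers. The labelled male pesticide median was the lower, although the ranges overlapped, and the difference was -0.27 ± 0.094 (SE), or 1.21-fold lower, limma adjusted p = 0.041 (24.9% of all genes passed in this comparison). A second probe, A_52_P334670, fell by 0.40 ± 0.098 on the log2 scale, adjusted p = 0.0055, whereas another, A_52_P279391, gave -0.23 ± 0.15, adjusted p = 0.30. In labelled females Clock ran from 10.25 through 10.42 to 10.75 in controls and from 10.39 through 10.54 to 10.60 in pesticide livers, a difference of 0.05 ± 0.094, adjusted p = 0.76. There A_52_P334670 gave -0.20 ± 0.098 (limma adjusted p = 0.17) and A_52_P279391 gave -0.006 ± 0.15 (0.98). Deviations of the brightest probe correlated at 0.46 with A_52_P334670 and at 0.15 with A_52_P279391, and those of the latter pair at 0.62. The interaction of labelled diet and labelled sex was -0.32 ± 0.13 for the brightest Clock probe, adjusted p = 1, and did not pass. It was -0.20 ± 0.14 for A_52_P334670 and -0.22 ± 0.21 for A_52_P279391, which did not pass either. Within the 3 slides the labelled male difference was -0.26, -0.14 and -0.41, and with slide as a block it was -0.27 with an adjusted p of 0.012.

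The Clock call stood close to the threshold. Leaving out any of 8 single arrays (labelled male control 1, 2, 3 or 6, or labelled male pesticide 2, 3, 5 or 6) moved its adjusted p to between 0.064 and 0.11 with a difference between -0.27 and -0.22. It also missed the threshold without the filter on dim probes (adjusted p = 0.071) and when only the male arrays were fitted (0.053). Markers of other liver cells moved with the same comparison, in which 14% of all genes were higher and 10.9% lower. Higher in labelled male pesticide livers were 7 of 8 Kupffer cell, 7 of 8 endothelial and 7 of 8 stellate cell markers, against 0 of 7 hepatocyte markers in either direction. Calls in the remaining lists were 4 of 7 for B cells and 2 of 7 for T and NK cells (all higher), 3 of 5 for erythroid cells (2 up, 1 down) and 0 of 6 for the bile duct. The summed Kupffer cell signal ran from 14.08 to 16.05 in labelled male controls and from 15.39 to 16.27 in labelled male pesticide livers, and the part of these cells in the Clock difference was not tested.

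Npas2, which can replace CLOCK as the partner of ARNTL, was near the background of the array. Its probe ran from 5.17 through a median of 5.45 to 5.66 in labelled male controls and from 5.18 through 5.51 to 5.80 in labelled female controls. In labelled male pesticide livers it ran from 5.45 through 5.73 to 6.11, and from 5.28 through 5.81 to 6.66 in labelled female pesticide livers. The groups overlapped, and labelled female pesticide 5, which had the highest Npas2 signal, also had the lowest Dbp (10.43) and the lowest Nr1d2 (8.22) of all 24 arrays. Because most of these values were not well above background, no fold change is given.

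Of the repressors, the Period genes were bright and variable between livers of one group. Per1, a light- and hormone-responsive repressor, ran from 11.69 through 12.44 to 13.06 in labelled male controls and from 11.01 through 12.28 to 12.78 in labelled male pesticide livers. In labelled females it ran from 11.92 through 12.14 to 12.53 in controls and from 12.31 through 12.47 to 12.79 in pesticide livers. The groups overlapped in both sexes, and the lowest Per1 value of the study was that of labelled male pesticide 1. The labelled diet difference was -0.22 ± 0.23 in males and 0.31 ± 0.23 in females, adjusted p = 0.54 and 0.37. Without labelled male pesticide 1 the male difference was 0.02.

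Per2, the Period gene whose protein also meets nuclear receptors, was measured by 2 probes that did not track each other, with r = -0.09 between their deviations. The dimmer one, A_52_P536869, lies at mm9 chr1:93336538-93336597 on the minus strand, has 1 open reading frame along its length and is shown because it is the one that departs from the bright probe.
Per2 A_52_P536869: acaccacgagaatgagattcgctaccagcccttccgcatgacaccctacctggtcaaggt
The bright probe, A_55_P2737144, ran from 11.11 through 11.44 to 11.63 in labelled male controls and from 10.87 through 11.87 to 12.37 in labelled male pesticide livers. In labelled females it ran from 10.98 through 11.75 to 11.82 in controls and from 10.94 through 11.29 to 11.51 in pesticide livers. The ranges overlapped, with the median higher in the labelled pesticide group of males and lower in that of females. The differences were 0.32 ± 0.20 and -0.29 ± 0.20, adjusted p = 0.26 and 0.33, and their interaction of 0.60 ± 0.28 had an adjusted p of 1. The dim probe gave -0.03 ± 0.15 in males and -0.27 ± 0.15 in females, adjusted p = 0.93 and 0.23.

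Per3, the remaining Period gene, ran from 7.31 through 8.11 to 8.76 in labelled male controls and from 7.95 through 8.43 to 9.20 in labelled male pesticide livers. It ran from 8.04 through 8.17 to 8.40 in labelled female controls and from 7.81 through 8.25 to 8.52 in labelled female pesticide livers. Labelled male livers were the more scattered, and both pairs of groups overlapped. The differences were 0.40 ± 0.20 (adjusted p = 0.16) in males and 0.01 ± 0.20 (adjusted p = 0.98) in females. A second probe, A_55_P2752088, gave 0.49 ± 0.19 in males with an adjusted p of 0.072, and the third, A_66_P135046, gave 0.21 ± 0.13.

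Cry1, the cryptochrome that blocks the activator pair late in the cycle, was measured by 2 probes. It ran from 7.44 through 7.82 to 8.15 in labelled male controls and from 7.51 through 7.64 to 8.10 in labelled male pesticide livers. It ran from 7.39 through 7.64 to 7.80 in labelled female controls and from 7.34 through 7.62 to 7.93 in labelled female pesticide livers. The ranges covered each other almost entirely, with differences of -0.10 ± 0.13 in males and 0.02 ± 0.13 in females, adjusted p = 0.63 and 0.92. The second probe, A_52_P420500, had the opposite sign in males, 0.11 ± 0.12.

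Nr1d1, a repressor of Arntl with a deep daily swing in mouse liver, was within a narrow range on most arrays and far above it on a pair of them. Its single probe, A_51_P223776, is at mm9 chr11:98630526-98631028 on the minus strand, spans 503 genomic bases and has 1 open reading frame along its length. The probe was well above background on all 24 arrays. On 22 of them its signal, 5.83 to 6.61, lay within the span of the Npas2 probe, 5.17 to 6.66. Its sequence is shown because every Nr1d1 value rests on it.
Nr1d1 A_51_P223776: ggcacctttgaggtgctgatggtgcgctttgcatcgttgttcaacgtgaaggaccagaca
On this probe Nr1d1 ran from 5.83 through 6.13 to 6.17 in labelled male controls and from 6.20 through 6.23 to 6.61 in labelled male pesticide livers. These groups did not overlap, as held for 10.2% of all tested probes in this comparison, and Nr1d1 was the only clock probe of 20 to separate. The difference was 0.23 ± 0.26, adjusted p = 0.57. In labelled female controls Nr1d1 ran from 6.08 through 6.34 to 8.44, and in labelled female pesticide livers from 6.26 through 6.37 to 6.51. The 8.44 of labelled female control 5 was 2.18 above the median of the 24 arrays and the 7.33 of labelled female control 6 was 1.07 above it, whereas the other 22 arrays lay between 5.83 and 6.61. Those 2 arrays set the spread that all groups share: without them the standard error fell from 0.26 to 0.081, the labelled male difference stayed at 0.23 and its adjusted p became 0.046. This omission was chosen after seeing the data, these Nr1d1 values among them. The smaller standard error and the adjusted p of 0.046 are therefore not independent of that choice. The labelled female difference was -0.41 ± 0.26 (adjusted p = 0.28) with labelled female control 5 and 6 and 0.14 ± 0.091 (adjusted p = 0.35) without them.

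Nr1d2, the closest relative of Nr1d1, had 3 probes whose deviations correlated at 0.92 to 0.95. It ran from 9.07 through 9.46 to 9.91 in labelled male controls and from 8.67 through 9.06 to 9.47 in labelled male pesticide livers. It ran from 8.94 through 9.57 to 10.65 in labelled female controls and from 8.22 through 9.31 to 9.46 in labelled female pesticide livers. Labelled female control 6 was the highest of all 24 arrays. The medians of the labelled pesticide groups were the lower in both sexes, but the ranges overlapped and the differences of -0.39 ± 0.24 and -0.52 ± 0.24 had adjusted p of 0.26 and 0.13. The female difference was -0.28 ± 0.23 without labelled female control 5 and 6, adjusted p = 0.47.

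Dbp, a PAR bZIP factor that drives rhythmic liver enzymes, had 2 probes that correlated at 0.99. It ran from 10.49 through 11.18 to 11.76 in labelled male controls and from 10.78 through 11.07 to 11.37 in labelled male pesticide livers. It ran from 10.60 through 11.43 to 12.75 in labelled female controls and from 10.43 through 11.23 to 11.71 in labelled female pesticide livers. The top value again belonged to labelled female control 6, which was 1.56 above the median of the 24 arrays, and the groups overlapped. The differences were -0.13 ± 0.26 in males and -0.39 ± 0.26 in females, adjusted p = 0.77 and 0.33, and the female one was -0.07 ± 0.24 without labelled female control 5 and 6.

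**Figure D2:**
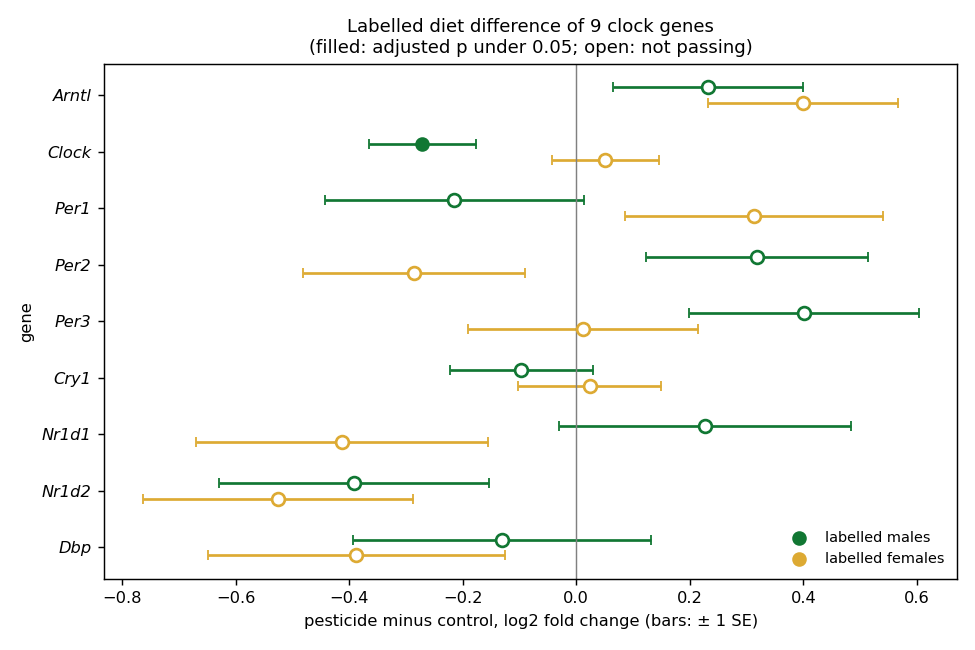
Labelled pesticide minus labelled control, as log2 fold change (horizontal axis), for the 9 tested clock genes (vertical axis) in labelled males and labelled females. Bars are ± 1 SE from limma and filled points have an adjusted p under 0.05. The only filled point is Clock in labelled males, at -0.27.

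In labelled males, then, 1 of 9 clock genes passed (Clock, lower), where 24.9% of all 16850 genes passed in either direction, 14% higher and 10.9% lower. By probes, 2 of 20 passed, both lower and both of Clock, against 22.2% of all tested probes, or 10.7% in that direction. In labelled females 0 of 9 clock genes and 0 of 20 probes passed by limma, where 20.3% of all genes and 18.3% of all tested probes did. By direction, 10.3% of all genes were higher and 10.1% lower there, and 8.88% of all tested probes were higher. No clock probe separated the labelled female groups, as 7.83% of all tested probes did. At an unadjusted p under 0.05, 11053 probes in males and 10167 in females passed over the whole table. The median size of the difference was 0.23 for the 9 genes in males and 0.31 in females, beside 0.16 and 0.16 for all genes. Without labelled female control 5 and 6, 2 of 9 clock genes passed in males (Clock lower, Nr1d1 higher; 26.1% of all genes) and 0 of 9 in females (13.4%). That omission was chosen after seeing the data, so the Nr1d1 call is not independent of it.

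Comparisons between the labelled sexes found no clock gene. Between labelled male and labelled female controls 0 of 9 clock genes passed, as did 0% of all tested probes by limma, with 1793 probes at an unadjusted p under 0.05. The largest clock difference there was Nr1d1, -0.70 ± 0.26, adjusted p = 0.67, and it was -0.145 ± 0.091 without labelled female control 5 and 6. Between labelled male and labelled female pesticide livers 0 of 9 passed, again with 0% of all tested probes and 1310 at an unadjusted p under 0.05. Per2 was the largest there, 0.45 ± 0.20, adjusted p = 1. In the interaction 0 of 9 passed, with 0% of all tested probes and 1263 at an unadjusted p under 0.05. No clock probe separated the groups in either comparison of labelled sexes, where 0.436% and 0.274% of all tested probes did.

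Within a group, most of the clock genes differed between livers more than the median probe did. Only group means were removed, so differences between slides are part of this spread. The standard deviation within groups was 0.49 for Dbp, above that of 96.7% of all tested probes, where the median probe had 0.18. Nr1d2 stood at 0.44 (95.5%), Per1 at 0.42 (94.8%), Per3 at 0.37 (92.2%) and Per2 at 0.36 (91.4%). Arntl stood at 0.31 (86.0%) and Cry1 at 0.23 (68.9%), and Clock, whose daily rhythm in liver is shallow, at 0.16 (36.9%). These are the brightest probes. Other tested probes stood lower for Arntl (74.7% and 68.0%), Per2 (81.4%), Per3 (91.2% and 71.3%) and Cry1 (63.6%). They stood higher for Clock (41.9% and 81.4%) and at 95.4% to 96.6% for Nr1d2 and Dbp. Nr1d1 had 0.48 (96.5%) with all arrays and 0.13 (21.6%) without labelled female control 5 and 6. The same omission left Dbp at 0.40 (93.7%), Nr1d2 at 0.38 (93.1%) and Arntl at 0.28 (83.3%). Within labelled female controls Dbp ranged 4.43-fold, Nr1d2 3.27-fold, Nr1d1 5.12-fold and Arntl 1.91-fold between the lowest and the highest liver.

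**Figure D3:**
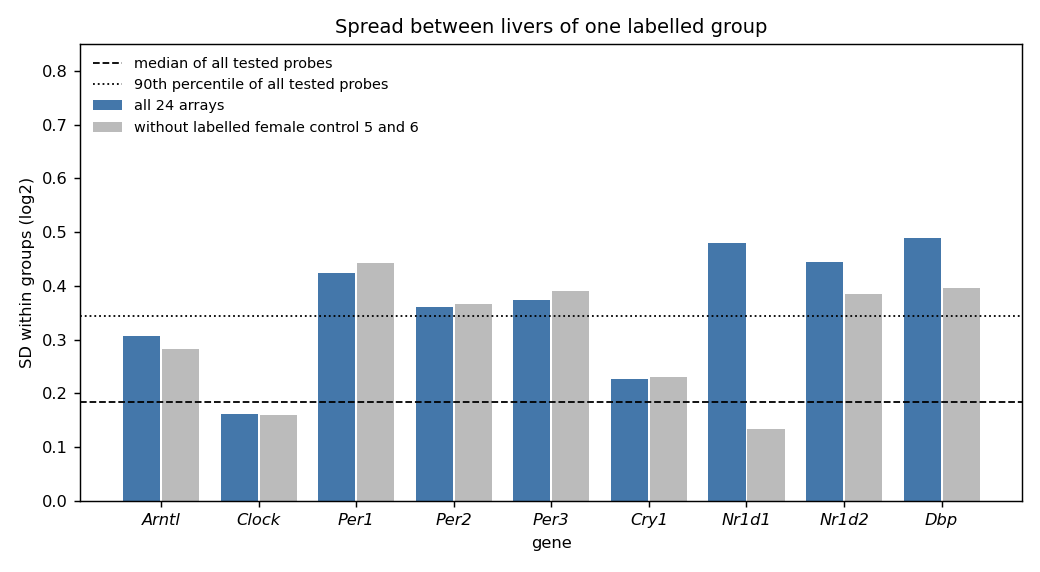
Standard deviation within labelled groups on the log2 scale (vertical axis) for the 9 tested clock genes (horizontal axis), from all 24 arrays and without labelled female control 5 and 6. Dashed and dotted lines are the median (0.18) and the 90th percentile (0.34) of all tested probes. Only Nr1d1 falls from above the dotted line to below the dashed one, from 0.48 to 0.13.

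The livers of one group differed in an ordered way: those with less Arntl had more Dbp and more Nr1d2. To see this apart from group differences, each value was taken as its deviation from its group mean, and the 45 pairs of the 10 genes were compared across 24 arrays by permutation within groups. Benjamini-Hochberg adjustment over 45 pairs left 3 with an adjusted p under 0.05. Arntl and Dbp, the activator and an output that peaks in the opposite phase, had r = -0.78 (permutation p = 2e-05, adjusted p = 0.0009) and rho = -0.73 (permutation p = 0.00016, adjusted p = 0.0072). Their deviations had opposite signs on 18 of 24 arrays. The correlation was -0.75 in labelled male controls, -0.95 in labelled female controls, -0.83 in the labelled male pesticide group and -0.80 in the labelled female pesticide group. Within slides it was -0.73, -0.74 and -0.83. Each value within a slide rests on 1 difference between 2 arrays in each of the 4 groups, so on 4 independent differences. It was -0.74 without the 2 arrays farthest in Arntl and -0.72 (adjusted permutation p = 0.004) without labelled female control 5 and 6.

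Nr1d2 and Dbp, which share the daytime phase, varied together, with r = 0.81 (permutation p = 0.0001, adjusted p = 0.0022) and rho = 0.69 (permutation p = 0.00087, adjusted p = 0.016). The correlation was 0.58, 0.95, 0.31 and 0.87 in labelled male control, female control, male pesticide and female pesticide livers, and 0.61, 0.82 and 0.78 within slides. It was 0.61 without the 2 arrays farthest in Nr1d2 and 0.70 (adjusted permutation p = 0.018) without labelled female control 5 and 6. Arntl and Nr1d2 were opposed, with r = -0.65 (permutation p = 0.0017, adjusted p = 0.026) and rho = -0.64 (permutation p = 0.0021, adjusted p = 0.024), negative in all 4 groups (-0.50, -0.91, -0.30 and -0.74). This pair was less even: within slides it was 0.01, -0.91 and -0.85, with no relation seen among the 4 differences of the first slide. Without the 2 arrays farthest in Arntl it was -0.68, and without labelled female control 5 and 6 it was -0.53, adjusted permutation p = 0.13. Its adjusted permutation p also reached 0.052 to 0.16 when one array was left out (labelled male control 1 or 5, female control 3 or 6, male pesticide 4 or female pesticide 5). With slide means removed as well, the 3 correlations were -0.83, 0.81 and -0.71. When arrays were then permuted only within group and slide, which leaves 2 arrays to exchange at a time, their adjusted permutation p were 0.12, 0.12 and 0.17, and none of the 45 pairs passed.

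**Figure D4:**
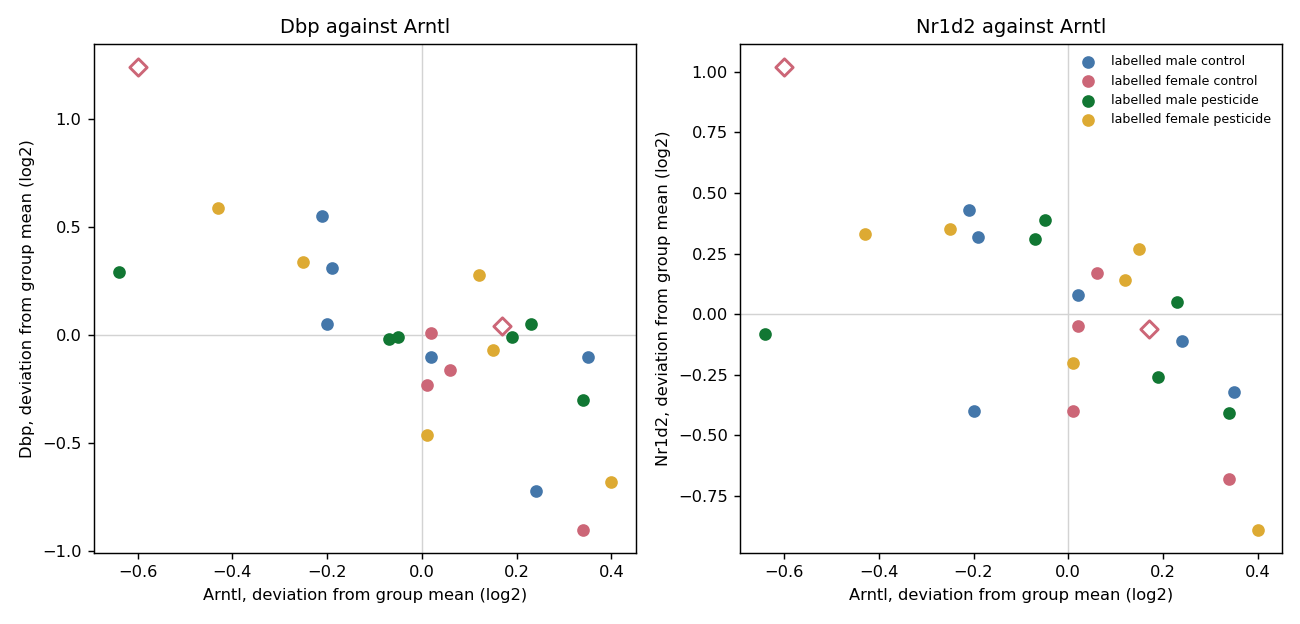
Deviation of Dbp (left) and Nr1d2 (right) from the group mean against that of Arntl, in log2 units, for 24 arrays coloured by labelled group. Diamonds are labelled female control 5 and 6. Arrays with low Arntl have high Dbp (r = -0.78) and high Nr1d2 (r = -0.65).

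The call of other pairs depended on the setting or did not pass. Per2 and Per3, repressors of similar phase, had r = 0.56 (permutation p = 0.0045, adjusted p = 0.051), and rho = 0.61 did pass (permutation p = 0.0011, adjusted p = 0.016). Npas2 and Nr1d2 had r = -0.57 (permutation p = 0.0081, adjusted p = 0.073), and -0.73 (adjusted permutation p = 0.018) without labelled female control 5 and 6, with most Npas2 values near background. Arntl and Per3 had r = -0.47 and Arntl and Cry1 r = 0.47, each with an adjusted permutation p of 0.17. With slide as a block, Per2 with Per3 (0.59, adjusted permutation p = 0.038) and Arntl with Per3 (-0.52, 0.024) did pass. By the mean of each gene's tested probes, Per2 with Per3 (0.62, adjusted permutation p = 0.024), Arntl with Per3 (-0.62, 0.0076) and Arntl with Cry1 (0.63, 0.013) passed. Arntl and its partner Clock had r = -0.02 over all arrays but 0.80, 0.23 and 0.43 within slides, and 0.51 with slide means removed. Arntl and Nr1d1 had r = -0.10 over all arrays and 0.40, 0.20 and 0.94 within slides, and the last of these slides held labelled female control 5 and 6. Without those arrays the r of Arntl and Nr1d1 was -0.03, and with slide means removed it was -0.31. Nr1d1 and Nr1d2 had r = 0.32, while their rank correlation of 0.59 passed (permutation p = 0.0029, adjusted p = 0.026). Labelled female control 5 and 6 raised their group mean of Nr1d1, and the other labelled female controls had Nr1d1 deviations of -0.70 to -0.36. Without labelled female control 5 and 6 the r of Nr1d1 and Nr1d2 was 0.39 (adjusted permutation p = 0.31), and the rank correlation was not computed. By ranks 5 pairs passed in all. Within single groups of 6, 180 exact permutation tests gave 0 with an adjusted p under 0.05.

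**Figure D5:**
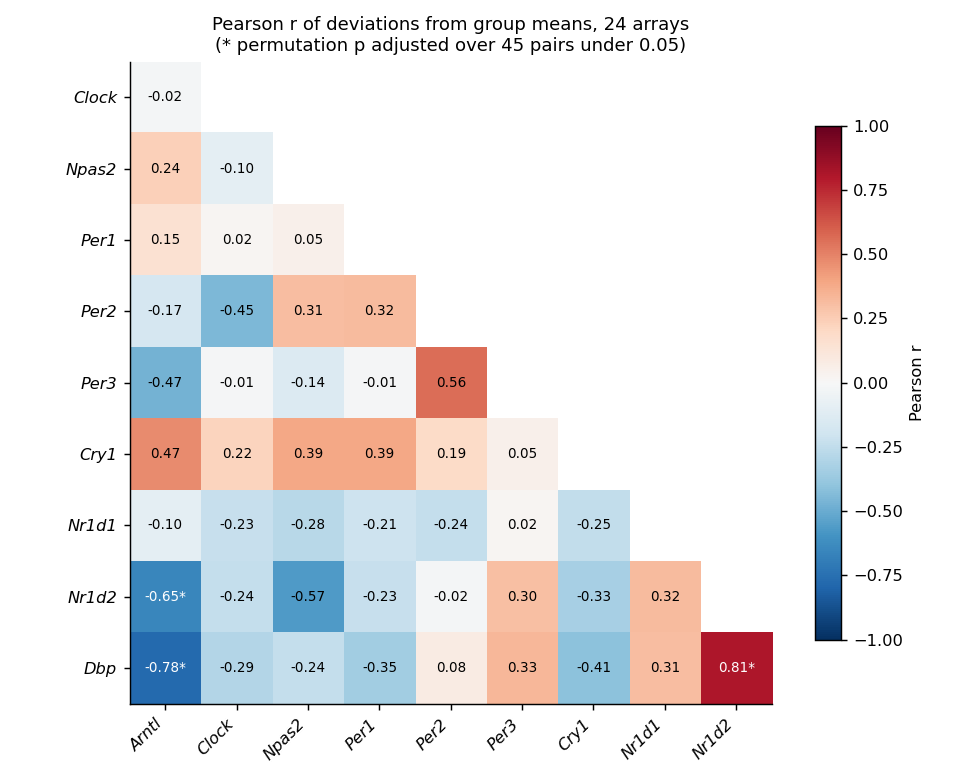
Pearson r for the 45 pairs of 10 clock genes, as deviations from group means over 24 arrays; red is positive, blue negative, and an asterisk marks a permutation p adjusted over 45 pairs under 0.05. The marked pairs are Arntl with Dbp (-0.78), Arntl with Nr1d2 (-0.65) and Nr1d2 with Dbp (0.81).

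Single livers lay at the ends of this relation between opposing genes. Labelled female control 6 combined the lowest Arntl (8.98) with the highest Dbp (12.75), the highest Nr1d2 (10.65) and the next highest Nr1d1 (7.33). At the other end, labelled female pesticide 5 combined a high Arntl (10.38) with the lowest Dbp (10.43) and the lowest Nr1d2 (8.22). Labelled female control 5 had the highest Nr1d1 (8.44) beside an Arntl of 9.75, a Dbp of 11.54 and an Nr1d2 of 9.57, all within the range of the other 22 arrays. Between groups, the medians of Arntl were higher and those of Nr1d2 and Dbp lower under the pesticide label in both sexes, and none of these differences passed. Nr1d1, also of the daytime phase, went the other way. Its median was 6.13 under the control label and 6.23 under the pesticide label in males, and 6.34 and 6.37 in females. Whether the arrays differ in the hour of sampling, in feeding or in another respect was not tested.

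The genes whose deviations most resembled those of Dbp were taken from 16838 other genes with a symbol and a value on each array, as a description with no test, since all genes share the same libraries. Nr1d2 ranked first with r = 0.81. Outside the 10 clock genes, and leaving out gene models without a name of their own, the 5 highest were Hhex (0.78), Wee1 (0.77), Picalm (0.76), Plekhf2 (0.76) and D7Wsu130e (0.75). These 5 had r between 0.56 and 0.72 without labelled female control 5 and 6. Wee1 is a cell cycle kinase known as an E-box target of the liver clock. The 5 lowest were Pde4dip (-0.79), Rfxank (-0.78), Gys1 (-0.78), Stra6l (-0.76) and Gfod1 (-0.74), and Arntl was the fourth lowest of all genes. Against Arntl the lowest were Tef (-0.82), Pdxk (-0.80), Ubap2 (-0.75), Asxl2 (-0.75) and Usp12 (-0.74), with Dbp the third lowest of all. Tef is a PAR bZIP factor of the same family as Dbp, and Pdxk encodes pyridoxal kinase, known as a target of these factors. The highest were Six5 (0.83), Slc30a10 (0.78), Inpp5e (0.77), Zfp512 (0.76) and Ethe1 (0.76). Of other clock components, Bhlhe40 (0.74), a repressor that acts at E-boxes, was close to Arntl too.

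Other components of the clock are the receptors, kinases and relatives around the 10 genes above. Of 18 listed, 16 were tested, and in labelled males 3 were higher and 2 lower against a background of 24.9%. Among them, Cry2 was 0.39 ± 0.12 higher (adjusted p = 0.022) and the kinase gene Csnk1e 0.31 ± 0.092 higher (0.016) by limma. Rora fell by 0.40 ± 0.14 (adjusted p = 0.045), and the deubiquitinase gene Usp2, a rhythmic output itself, by 0.76 ± 0.25 (0.031). In labelled females 2 were higher, among them Hlf, a relative of Dbp (0.42 ± 0.12, adjusted p = 0.017), and 1 was lower, Ciart (-0.35 ± 0.11, adjusted p = 0.028), against 20.3%. Ciart was well above background on 4 of 6 labelled female control arrays but on 1 of 6 in each other group. It was thus tested only through the group where it was high, and its call is not independent of the filter. Without labelled female control 5 and 6 the female count was 0 higher and 1 lower (Ciart), where 13.4% of all genes passed in either direction. Rora, Usp2 and Ciart were named after their values were seen.

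Of 15 rhythmic output genes of liver, all tested, 1 was higher and 2 were lower in labelled males and 3 higher and 1 lower in labelled females, beside 24.9% and 20.3% of all genes in either direction. Coq10b fell in both, by 0.87 ± 0.20 (adjusted p = 0.0033) and 0.64 ± 0.20 (0.028). Klf9, a glucocorticoid- and clock-responsive factor, fell by 0.80 ± 0.18 in males (adjusted p = 0.0030), and the deadenylase gene Noct was 0.46 ± 0.11 higher (0.0036). Avpr1a, a vasopressin receptor gene, was 0.83 ± 0.23 higher in females (adjusted p = 0.013), as were, named after their values were seen, Upp2 (0.020) and Rgs16 (0.025). Without labelled female control 5 and 6 the counts were 2 (Noct and Nampt) and 2 in males and 1 (Upp2) and 0 in females. The shares of all genes passing in either direction were then 26.1% and 13.4%.

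Genes that follow temperature, glucocorticoid or food through the day were counted in the same way, beside 14% of all genes higher and 10.9% lower in males and 10.3% and 10.1% in females. In the labelled female comparison 7 of 8 Kupffer cell, 5 of 8 endothelial, 3 of 8 stellate cell and 1 of 7 hepatocyte markers were higher. Calls there were also 1 of 7 for T and NK cells (higher), 1 of 5 for erythroid cells (lower), 0 of 7 for B cells and 0 of 6 for the bile duct. Of 10 temperature-responsive genes 0 were higher and 1 lower in labelled males and 0 and 3 in labelled females, with the chaperone gene Hspa1b down by 1.66 ± 0.38 (adjusted p = 0.0028) and 1.41 ± 0.38 (0.011). The others in females were Dnajb1 (adjusted p = 0.017) and Hsp90aa1 (0.043). Of 10 glucocorticoid-responsive genes 2 were higher in males and 5 in females, and 0 were lower in either; Sgk1 was higher in both, by 0.52 ± 0.18 (adjusted p = 0.037) and 1.33 ± 0.18 (9.5e-06). Nr3c1, the glucocorticoid receptor gene, was higher in both as well, by 0.31 ± 0.065 (adjusted p = 0.0017) and 0.21 ± 0.065 (0.026). The others in females were Fkbp5, Mt2 and, named after its values were seen, Pck1 (adjusted p = 0.014, 0.017 and 0.043). The interaction for Fkbp5 was -0.52 ± 0.26, adjusted p = 1. Of 13 feeding and fasting genes 2 were higher in each sex and 0 lower, with Pdk4, a fasting-induced kinase gene, up by 1.63 ± 0.28 (adjusted p = 0.00021) and 1.15 ± 0.28 (0.0062). The second was Pnpla3 in males (adjusted p = 0.021) and Pck1 in females. Without labelled female control 5 and 6, 1 glucocorticoid gene (Sgk1) and 1 feeding gene (Pdk4) passed in labelled females, where 13.4% of all genes did. The relation of these lists to the clock genes, and the part of other liver cells in them, was not tested.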

How the data were processed

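Liver RNA of 24 samples was hybridised to Agilent SurePrint G3 mouse arrays in 1 colour. The scanner intensities deposited by the authors are median spot brightness from Agilent Feature Extraction 10.10.1.1, per the file headers, with probe positions on mm9. Other deposited columns are the software's marks for control, non-uniform, saturated and well-above-background spots. The authors also deposited a table of log2 values, filtered and quantile-normalised in R with limma, per the labels; it was used as an alternative.

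Here control and non-uniform spots were left out, median signals of the spots of a probe were averaged, and the log2 values of these means were quantile-normalised. Probes well above background on at least 4 of 6 arrays in a group were tested. limma 3.58.1 in R 4.3.3 fitted the 4 labelled groups together, with Benjamini-Hochberg adjustment over 32078 probes and a threshold of 0.05. A gene's call is that of its brightest probe. Correlations used deviations from group means and 100000 two-sided permutations within groups (scipy 1.17.1, numpy 2.4.6). The number of arrays limits the precision, and 0 spots were saturated. The procedures were tested on simulated data.

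The clock genes and all gene lists were chosen with earlier results of these data known. Named were all clock probes, up to 4 genes of each other list with the smallest p, and the 5 genes most and least like Dbp and Arntl. The values of 1 gene that this rule names are not reported here, although list counts include it. Lists counted were other clock components, rhythmic outputs, temperature, glucocorticoid and feeding genes, sex-linked genes (1 higher and 4 lower of 5 in both labelled diet comparisons), and markers of hepatocytes, Kupffer, endothelial, stellate, T and NK, B, erythroid and bile duct cells. Alternatives were other background corrections, scalings, filters, blocks, probe summaries and single arrays left out. Leaving out labelled female control 5 and 6 together was chosen after seeing the data.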

Additional observations from a re-analysis of the deposited data

Results flagged for a closer look

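In 40 sets of 6 arrays (10 clock genes in 4 labelled groups), 2 single arrays lay far from the rest of their group by Dixon's criterion, where chance gives about 1 in 20 sets. Arntl was 8.98 on labelled female control 6, against 9.59 for the nearest array of that group, a gap of 0.65 of the group's range. Nr1d1 was 5.83 on labelled male control 2, against 6.09 for the nearest, a gap of 0.76 of the range. The Nr1d1 values of labelled female control 5 and 6 did not meet the criterion, because each is the other's neighbour.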

How the results depend on the processing

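Of 486 fold changes of clock genes under settings other than single arrays left out, 472 kept direction and side of the threshold, as did 1048 of 1080 with single arrays left out. The number of clock genes passing in labelled males (1) was 0 without the dim-probe filter, 0 with only the male arrays fitted, 2 without labelled female control 5 and 6 (chosen after seeing the data) and 0 to 1 with single arrays left out. Signs changed for Cry1 in males (0.01 by the mean of its probes) and for Clock in females (-0.0006 and -0.03 when median or processed signals were scaled to the 75th percentile, -0.05 by the mean of its probes). Without labelled female control 5 and 6, signs changed for Clock (-0.02), Cry1 (-0.03) and Nr1d1 (0.14) in females, Nr1d2 (0.08) and Dbp (0.02) between labelled controls, and Nr1d2 (-0.11) and Dbp (-0.06) in the interaction. That omission also left 3874 probes passing in females and 1 between labelled controls. With single arrays left out, 5919 to 7475 probes passed in males, 4776 to 6532 in females, 0 to 1 between labelled controls (1 without female control 1 or 6) and 0 to 1 between labelled pesticide groups (1 without female control 4). Fold changes whose sign turned ran from -0.35 to 0.02 for Per1 in males, and in females from -0.05 to 0.09 for Per3 and -0.03 to 0.08 for Cry1. Between labelled controls they ran from -0.20 to 0.09 for Per3 and -0.30 to 0.05 for Nr1d2. Between labelled pesticide groups they ran from -0.20 to 0.06 for Nr1d2 and -0.18 to 0.08 for Dbp, and in the interaction from -0.07 to 0.27 for Nr1d2. Of all probes called in males 52% were higher, and 38.1% when median signals were scaled to the 75th percentile. The number of correlated pairs (3) was 8 by the mean of a gene's probes and 2 to 6 with single arrays left out (6 without male control 6). With slide as a block it was 5 under permutation within groups and 0 under permutation within group and slide; the latter was computed first, and the former follows the planned design. The labels do not say that replicate numbers pair the samples, and not every same-numbered pair correlated over 0.1, so no pairing was used. As a hint from the data, same-numbered arrays of different groups correlated at -0.11 to 0.38 (median 0.09, over 0.1 in 18 of 36 pairs), other-numbered ones at a median of -0.03 (39 of 180 pairs), and 13 of 24 arrays correlated best with their own number. With the replicate block 8099 probes passed in males and 6747 in females, 1 and 0 clock genes passed, and 3 pairs were correlated. The cause of these changes was not tested. The interaction was not run with only the arrays compared, since it uses all groups. Npas2 is limited by its signal near background.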
